A study of Mus musculus with 14 samples.

Results

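Fc gamma receptors bind the constant part of immunoglobulin G, and the genes examined here encode the 4 mouse receptors and 6 proteins that carry or limit their signal. They are Fcgr1, Fcgr2b, Fcgr3, Fcgr4, Fcer1g, Lyn, Syk, Plcg2, Inpp5d and Ptpn6. Members were taken by their capitalised symbols in the deposited table, FCGR1, FCGR2B, FCGR3, FCGR4, FCER1G, LYN, PLCG2, INPP5D and PTPN6, which gave 9 of the 10. The remaining one, Syk, was found through its RefSeq accession because the table lists it as SYKB. Where a gene had several transcript rows, the row with the highest mean was used. All 10 were measured, out of 14217 genes in the table, and all 10 passed the filter on low values that left 8822 genes for testing. The libraries came from microglia, the resident macrophages of the brain, of germ-free (GF) mice, raised without microbes, and of specific-pathogen-free (SPF) mice, which carry a gut flora, with 7 libraries in each group. All animals were C57BL/6 mice of 6 to 8 weeks with no prior treatment, the labels name no allele or transgene, and the series design gives 1000 cells per brain. The labels do not say that each library is a separate animal, so p-values measure the spread between these libraries, which may in part be technical.

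Activating receptors signal through an associated gamma chain whose cytoplasmic tail holds an immunoreceptor tyrosine-based activation motif (ITAM). Src-family kinases such as Lyn phosphorylate the motif, the kinase Syk docks on it, and phospholipase C gamma 2 is among the enzymes that follow. The inhibitory receptor Fcgr2b instead carries a tyrosine-based inhibitory motif (ITIM) in its own tail, which recruits phosphatases, foremost the lipid phosphatase encoded by Inpp5d. In macrophages the balance between both receptor kinds sets the threshold for uptake of antibody-coated targets and for cytokine release.

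The coding bases of the motifs that set the receptor kinds apart are shown because the contrast below is between the gene with the inhibitory motif and those that depend on the activating one. Both come from the GENCODE M21 transcripts (GRCm38) that carry the RefSeq accessions of the deposited rows, run 5′ to 3′ on the coding strand of genes on chromosome 1, and have the tyrosine codons in capitals.
Fcer1g ITAM: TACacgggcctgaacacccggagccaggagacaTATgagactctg
Fcgr2b ITIM: atcaccTACtcacttctc
The first spans residues 65 to 79 of the 86 residues of the gamma chain and holds 2 tyrosine codons. The second spans residues 270 to 275 of the 293 residues of the Fcgr2b protein. The ITAM pattern matched 1 time in the coding region of Fcer1g and 0 times in those of Fcgr1, Fcgr2b, Fcgr3 and Fcgr4. The ITIM pattern is short and also matched in Fcgr1 (2 times), Fcgr4 and Fcer1g (1 time each), so a match alone does not mark a working site.

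Values are the authors' normalized counts, and a difference is the mean log2 value in GF less that in SPF, taken after adding a pseudocount of 1.44 normalized counts, which understates changes of low genes. Genes are said to have risen or fallen where limma's Benjamini-Hochberg adjusted p over all genes tested was under 0.05. By that rule 6.76% of all genes tested were called, 3.68% higher and 3.07% lower in GF. The split was 325 higher and 271 lower, against 264 and 332 with upper-quartile scaling and 293 and 155 with trends of transcript length and GC content removed. Depth was 680082 to 1190253 read equivalents per GF library and 907568 to 1634679 per SPF library. The smallest GF library was GF 6 and the smallest SPF library SPF 2. GF 1 stood apart in some transcripts of dendritic cells and other leukocytes, not in all. It had 19.8 normalized counts of Flt3, at most 2.97 elsewhere, and 13.5 of Ccr7, listed at 0 in every other library. Itgax was nearly as high in SPF 6 (49.3) as in GF 1 (51.0), and Zbtb46 was higher in GF 4 (4.03) than in GF 1 (3.12). The monocyte marker Ccr2 was at 0 in GF 1 and at 11.3 in SPF 7. GF 1, GF 6 and SPF 2 were left out together as 1 of the alternative settings.

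Of the 10 genes, the inhibitory receptor gene Fcgr2b fell in GF microglia and none rose, 1 call in all against the 6.76% called among all genes. The activating receptor genes Fcgr1 and Fcgr3, the gamma chain gene Fcer1g and Lyn had log2 differences above 0 that did not pass. Relative to Fcgr1 and to Fcgr3, Fcgr2b was lower in every GF library than in any SPF library. Over the 10 genes the median log2 difference was 0.08, against -0.02 over all genes tested, with 6 above 0 and 4 below. At an unadjusted p under 0.05 there were 5 of the 10, where 21.9% of all genes tested reached it.

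**Figure D1:**
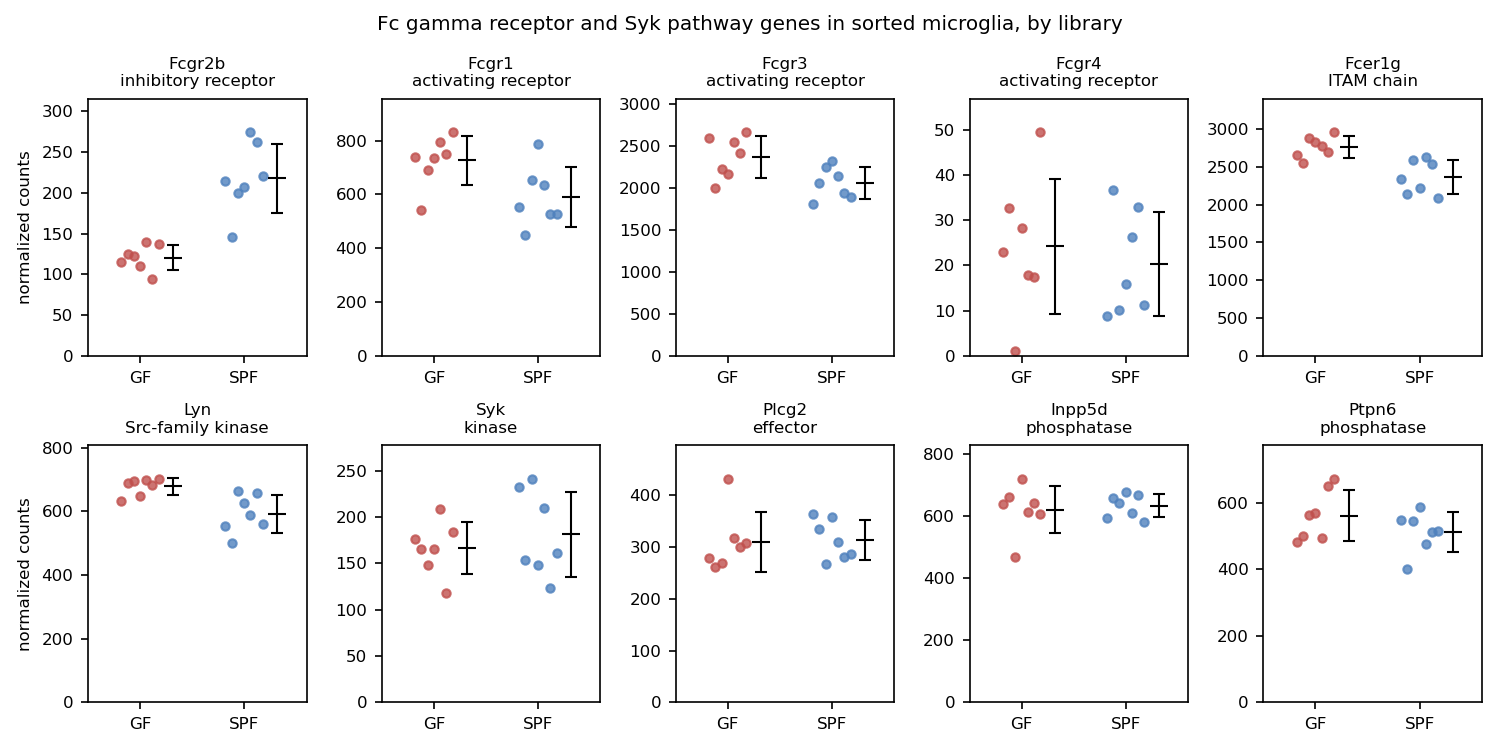
Normalized counts (vertical axes, from 0) of the 10 genes in each of 7 GF libraries, left, and 7 SPF libraries, right, with the mean and SD beside the points. For Fcgr2b the GF points end at 139 and the SPF points start at 146, while the groups overlap for the other 9 genes.

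Fcgr2b, the only inhibitory Fc gamma receptor gene of the mouse, had a lowest value of 94.6, a median of 122 and a highest of 139 normalized counts in the GF libraries. In the SPF libraries its lowest value was 146, its median 215 and its highest 274. Every GF library lay below every SPF library, a separation shown downward by 0.895% of all genes tested. The means were 120 ± 15.6 in GF and 218 ± 42.5 in SPF (SD, n = 7 each), which is a log2 difference of -0.83 ± 0.14 (SE) with a 95% interval of -1.13 to -0.54, or 0.562 times the SPF level (limma adjusted p = 0.000683). The libraries are bulk samples, so fewer cells that express the gene and less RNA per cell cannot be told apart.

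Depth moved with this gene and with the groups. The lowest Fcgr2b value of each group was in that group's shallowest library, GF 6 with 94.6 and SPF 2 with 146, and the highest SPF value was in SPF 5, the deepest. With depth as a covariate the difference was -0.63 (limma adjusted p = 0.0127). Without GF 6, SPF 2 and also GF 1, the library highest in Flt3 and Ccr7, it was -0.85 (limma adjusted p = 0.00151). In read equivalents Fcgr2b ranged from 54.5 to 405.8 per library.

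The table holds Fcgr2b as 2 transcript rows with unequal values, and the row with the higher mean was used. That row belongs to the transcript coding for 293 residues, and the other to one coding for 340, which is 47 residues longer. The lower row stood at 115 ± 18.1 in GF and 213 ± 43.7 in SPF (SD, n = 7 each), which is a log2 difference of -0.87. The rows differed by 2.32 to 10.4 normalized counts in GF libraries and by 1.67 to 11.04 in SPF libraries, with the used row higher in all 14. In the other, lower row the highest GF library, at 137, overlapped the lowest SPF library, at 135. The rows were nearly alike, so they give no separate measure of the protein forms.

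Fcgr2b and Fcgr3 have long stretches of near-identical sequence, which bears on where their reads were counted. Of the 30-base words in the used Fcgr2b transcript 16.6% also occur in Fcgr3, and of those in the Fcgr3 transcript 18.1% occur in Fcgr2b. In the last 500 bases, the part nearest to where a 3′-end library reads, 0% of the words of either were shared with another gene. For reads with several alignments the treatment was not given in the sources used here.

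Fcgr1 encodes the high-affinity receptor for immunoglobulin G. Its values ran from 543 over a median of 739 to 831 normalized counts in GF libraries and from 451 over 554 to 787 in SPF libraries. The groups overlapped, with 6 of 7 GF libraries above the SPF median and the highest SPF library, SPF 4, above 5 of the GF libraries. The means were 727 ± 92.4 in GF and 591 ± 110 in SPF (SD, n = 7 each), which is a log2 difference of 0.31 ± 0.11 (SE, 95% interval 0.07 to 0.54, limma adjusted p = 0.106). It passed without GF 2 (limma adjusted p = 0.0475) and without SPF 4 (limma adjusted p = 0.0367). The difference was 0.19 with quantile normalization (limma adjusted p = 0.317) and 0.23 without GF 1, GF 6 and SPF 2 (limma adjusted p = 0.347).

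Fcgr3, a low-affinity activating receptor gene, ran from 1997 over a median of 2424 to 2666 in GF libraries and from 1814 over 2064 to 2328 in SPF libraries. In 4 GF libraries it stood above the highest SPF library, and 3 SPF libraries stood below the lowest GF library. The log2 difference was 0.20 ± 0.08 (SE, 95% interval 0.03 to 0.37, limma adjusted p = 0.145). With quantile normalization it was 0.11 (limma adjusted p = 0.406).

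Fcgr4, the remaining activating receptor gene, was close to the limit of detection. It ranged from 0.996 over a median of 22.9 to 49.4 normalized counts in GF libraries and from 8.84 over 15.9 to 36.7 in SPF libraries. The lowest value, in GF 3, is 1 read equivalent. At this depth no difference was detectable, with a log2 difference of 0.03 ± 0.50 (SE) and a 95% interval of -0.99 to 1.05 (limma adjusted p = 0.980). Leaving out GF 3 gave 0.53.

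**Figure D2:**
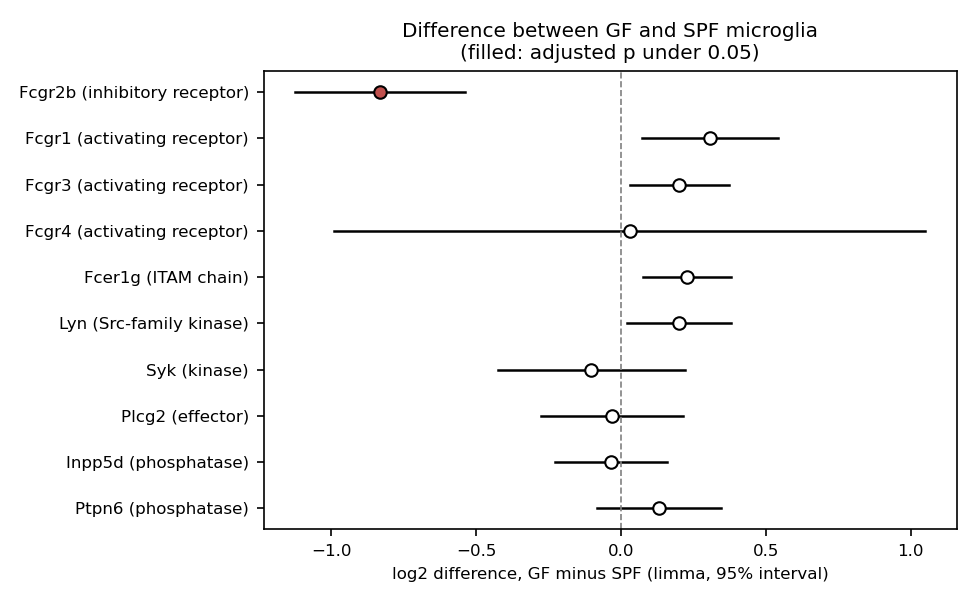
Log2 difference, GF minus SPF (horizontal axis), with its 95% interval for each of the 10 genes, filled where the adjusted p was under 0.05. Fcgr2b at -0.83 is the only filled point, and the interval of Fcgr4 runs from -0.99 to 1.05.

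The inhibitory receptor was then set against each activating one by the log2 ratio of their values within a library. An exact permutation test over all 3432 divisions of the libraries was used, two-sided, and adjusted over the 3 pairs. Most values of a library were multiples of a common step, so counts appear not to have been divided by transcript length. The ratio itself is therefore not read as a ratio of molecules, and its difference between groups is the quantity compared.

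Against Fcgr1 the ratio averaged -2.58 ± 0.26 in GF and -1.44 ± 0.32 in SPF (SD, n = 7 each). The highest GF library stood at -2.11 and the lowest SPF library at -1.92, a difference in means of -1.14 (exact permutation adjusted p = 0.000874). Against Fcgr3 it averaged -4.29 ± 0.22 in GF and -3.25 ± 0.34 in SPF (SD, n = 7 each), with -3.99 as the highest GF and -3.81 as the lowest SPF value. The difference was -1.03 (exact permutation adjusted p = 0.000874). All 7 GF libraries lay below all SPF libraries in both pairs, and both unadjusted values were 0.000583, the smallest these divisions can give.

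Counted plainly, there were 16.0 to 25.6 normalized counts of Fcgr3 for each count of Fcgr2b in GF libraries, with a median of 19.4. In SPF libraries there were 7.42 to 14.1, with a median of 8.57. For Fcgr1 the range was 4.36 to 7.94 in GF libraries and 2.01 to 3.80 in SPF libraries. The difference of -1.14 against Fcgr1 holds -0.83 from Fcgr2b and the rest from the 0.31 of Fcgr1, which itself did not pass.

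Against Fcgr4 the ratio averaged 2.63 ± 1.41 in GF and 3.49 ± 0.85 in SPF (SD, n = 7 each), and the groups overlapped. The difference of -0.86 did not pass (exact permutation adjusted p = 0.193). It was -1.37 without GF 3, the library with 1 read equivalent of Fcgr4 (exact permutation adjusted p = 0.00699). The ratio in GF 3 was 5.67, above every other library.

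**Figure D3:**
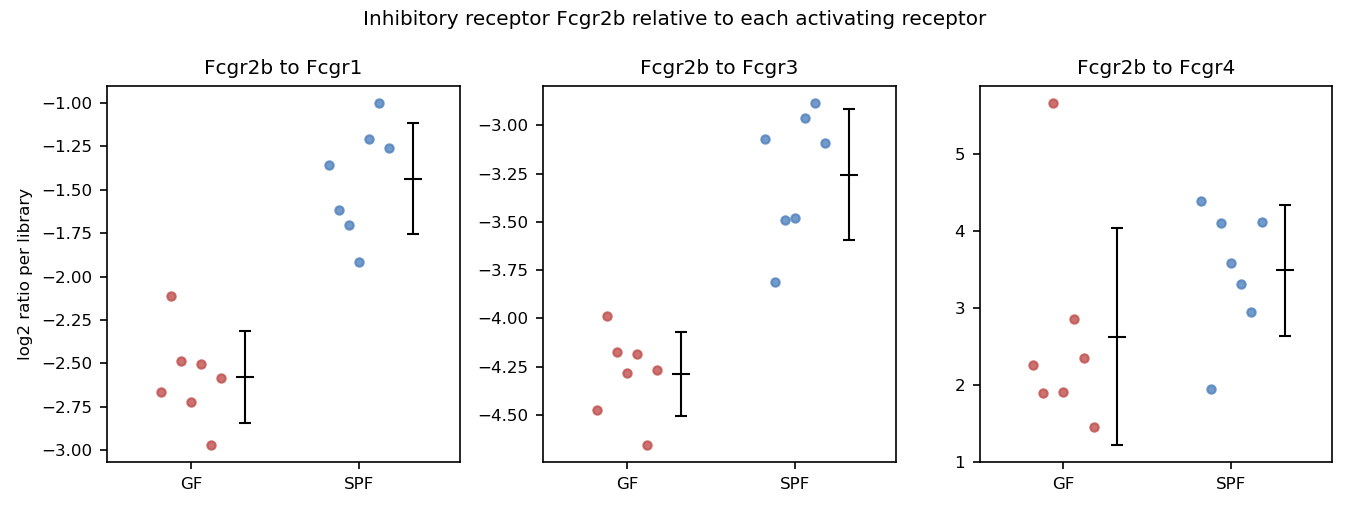
Log2 ratio of Fcgr2b to each activating receptor gene (vertical axes) in the 7 GF libraries, left, and the 7 SPF libraries, right, with mean and SD. GF and SPF points separate for Fcgr1 and Fcgr3, and for Fcgr4 the GF 3 library stands at 5.67 above the rest.

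Fcer1g, the gamma chain gene on which the activating receptors depend for their ITAM, came closest to the threshold among the genes that did not pass. It ran from 2547 over a median of 2780 to 2955 normalized counts in GF libraries and from 2083 over 2342 to 2633 in SPF libraries. In 6 of 7 GF libraries it stood above the highest SPF library, and GF 2 was the exception. The means were 2763 ± 139 in GF and 2364 ± 224 in SPF (SD, n = 7 each), which is a log2 difference of 0.23 ± 0.07 (SE, 95% interval 0.08 to 0.38, limma adjusted p = 0.0613). It passed without SPF 3 (limma adjusted p = 0.0482) and when low genes were filtered more strictly (limma adjusted p = 0.0462). With trends of transcript length and GC content removed the difference was 0.14 (limma adjusted p = 0.243), and without a mean trend the adjusted p from limma was 0.256.

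Lyn, the kinase gene whose product phosphorylates both ITAM and ITIM tyrosines, ran from 633 over a median of 689 to 702 in GF libraries and from 501 over 588 to 663 in SPF libraries. In 5 GF libraries it stood above the highest SPF library. The means were 679 ± 27.0 in GF and 593 ± 59.7 in SPF (SD, n = 7 each), which is a log2 difference of 0.20 ± 0.09 (SE, 95% interval 0.02 to 0.38, limma adjusted p = 0.173). With trends of transcript length and GC content removed the difference was 0.40, past the threshold (limma adjusted p = 0.00815), and with quantile normalization it was 0.11 (limma adjusted p = 0.472).

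Syk, the kinase that docks on phosphorylated ITAMs, ran from 118 over a median of 166 to 209 in GF libraries and from 124 over 162 to 241 in SPF libraries. The ranges overlapped over nearly their whole width. The log2 difference was -0.10 ± 0.16 (SE, 95% interval -0.43 to 0.22, limma adjusted p = 0.758). Plcg2, whose product cleaves membrane phosphoinositide into second messengers, ran from 261 over a median of 300.3 to 431 in GF libraries and from 267 over 308 to 362 in SPF libraries. Its log2 difference was -0.03 ± 0.12 (SE, 95% interval -0.27 to 0.21, limma adjusted p = 0.911). The highest of its values, in GF 4, stood apart from the other GF libraries, of which the next was at 316.

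The phosphatase genes showed no shift that passed. Inpp5d encodes SHIP, the inositol phosphatase that Fcgr2b recruits. It ran from 470.2 over a median of 638 to 720.2 in GF libraries and from 583 over 644 to 677 in SPF libraries, a log2 difference of -0.04 ± 0.09 (SE, 95% interval -0.23 to 0.16, limma adjusted p = 0.866). Both the lowest and the highest value were in GF libraries, GF 3 and GF 4. Ptpn6 encodes the tyrosine phosphatase SHP that binds ITIMs of many myeloid receptors. It ran from 481 over a median of 563 to 671 in GF libraries and from 400.3 over 514 to 587 in SPF libraries, a log2 difference of 0.13 ± 0.10 (SE, 95% interval -0.08 to 0.35, limma adjusted p = 0.502). That of Ptpn6 was 0.03 with quantile normalization (limma adjusted p = 0.894).

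Other genes of the pathway were described in 5 lists with 99 entries, of which 68 were tested. There, 3 rose and 4 fell in GF, or 10.3% called against 6.76% of all genes tested. Of 7 tested Src-family kinase genes and regulators 1 rose and 1 fell, with a list median of 0.32. Csk, the kinase that holds Src-family kinases inactive, had 678 to 892 normalized counts in GF libraries and 445 to 754 in SPF libraries, and rose by 0.47 on the log2 scale (limma adjusted p = 0.00696). Pag1, the membrane adaptor that recruits Csk, had 38.2 to 74.2 in GF libraries and 63.7 to 101 in SPF libraries, and fell by 0.63 (limma adjusted p = 0.0317). The call of Pag1 was lost without GF 3, GF 6, GF 7, SPF 2, SPF 5 or SPF 6 (limma adjusted p up to 0.0782) and with depth as a covariate (limma adjusted p = 0.124). The difference of Pag1 was -0.39 with trends of length and GC content removed (limma adjusted p = 0.232).

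Among 6 tested ITAM adaptors and receptors that couple to them 1 rose and 0 fell, with a list median of 0.23. Trem2, a lipid-sensing receptor that signals through the adaptor Tyrobp, had 2759 to 3361 normalized counts in GF libraries and 2153 to 3064 in SPF libraries, and rose by 0.28 (limma adjusted p = 0.0427). That call held in 9 of 28 alternative settings and was lost without any of GF 1, 2, 3, 5 and 7 and SPF 1, 2, 3, 4 and 7 (limma adjusted p up to 0.0912). With trends of transcript length and GC content removed the difference of Trem2 was 0.12 (limma adjusted p = 0.455). Tyrobp itself, named here after its values were seen, averaged 3323 ± 363 in GF and 2857 ± 530 in SPF (SD, n = 7 each, log2 difference 0.23, limma adjusted p = 0.176).

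Of 30 tested Syk effectors 1 rose and 1 fell, 6.67% of them, with a list median of -0.08. Vav1, an exchange factor for Rac GTPases that Syk phosphorylates, ran from 547 to 835 normalized counts in GF libraries and from 333 to 500.4 in SPF libraries. Every GF library lay above the highest SPF library, as for 1.28% of all genes tested, and the log2 difference was 0.60 ± 0.11 (SE, limma adjusted p = 0.00157). Cdc42, a GTPase of actin remodelling, ran from 108 to 363 in GF libraries and from 423 to 600.2 in SPF libraries. Every GF library lay below the lowest SPF library, with a log2 difference of -1.12 ± 0.19 (SE, limma adjusted p = 0.000683). Both calls held in all 28 alternative settings. They were also the ones among the 7 calls in these lists that held with trends of length and GC content removed, and, with that of Pag1, those that held without a mean trend.

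Of 21 tested inhibitory phosphatases, adaptors and ITIM receptors 0 rose and 2 fell, or 9.52%. Of their log2 differences 14 were below 0 and 7 above, with a list median of -0.37, against -0.02 over all genes tested. Over the alternative settings the list median lay between -0.41 and -0.19, with 0 to 1 called higher and 0 to 3 called lower. Those above 0 included Dok3 at 0.50 (limma adjusted p = 0.0600) and Cd22 at 0.97 (limma adjusted p = 0.138), both named after their values were seen. Lair1, an ITIM receptor for collagen, ran from 173 to 276 normalized counts in GF libraries and from 231 to 371 in SPF libraries, and fell by 0.47 (limma adjusted p = 0.0232). Its call was lost without GF 2, SPF 4 or SPF 7 (limma adjusted p up to 0.0582), with depth as a covariate (limma adjusted p = 0.148) and with trends of length and GC content removed (-0.25, limma adjusted p = 0.284). Ptpn2, a nuclear and endoplasmic tyrosine phosphatase gene, had 0.989 to 27.8 in GF libraries and 20.9 to 58.8 in SPF libraries, and fell by 1.64 (limma adjusted p = 0.0270). The call of Ptpn2 held in 19 of 27 alternative settings and was lost without GF 3, SPF 1, SPF 2 or SPF 7 (limma adjusted p up to 0.0623). It was also lost with the mean of all rows of the gene (-1.40, limma adjusted p = 0.0595) and with no filter on low values (limma adjusted p = 0.0627). The same held without a mean trend (limma adjusted p = 0.0849) and with trends of length and GC content removed (-1.41, limma adjusted p = 0.0663).

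Of the other Fc receptor genes 8 were in the table, 4 were tested and none passed. Trim21, the cytosolic antibody receptor, had the smallest p, with 0.996 to 14.9 normalized counts in GF libraries and 5.91 to 34.9 in SPF libraries (log2 difference -1.31, limma adjusted p = 0.117). Fcgrt, which encodes the neonatal Fc receptor, and Fcrls, a microglial Fc receptor-like gene, were named after their values were seen. Fcgrt averaged 230.1 ± 39.6 in GF and 213 ± 30.2 in SPF, and Fcrls 3772 ± 362 in GF and 4126 ± 461 in SPF (SD, n = 7 each).

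**Figure D4:**
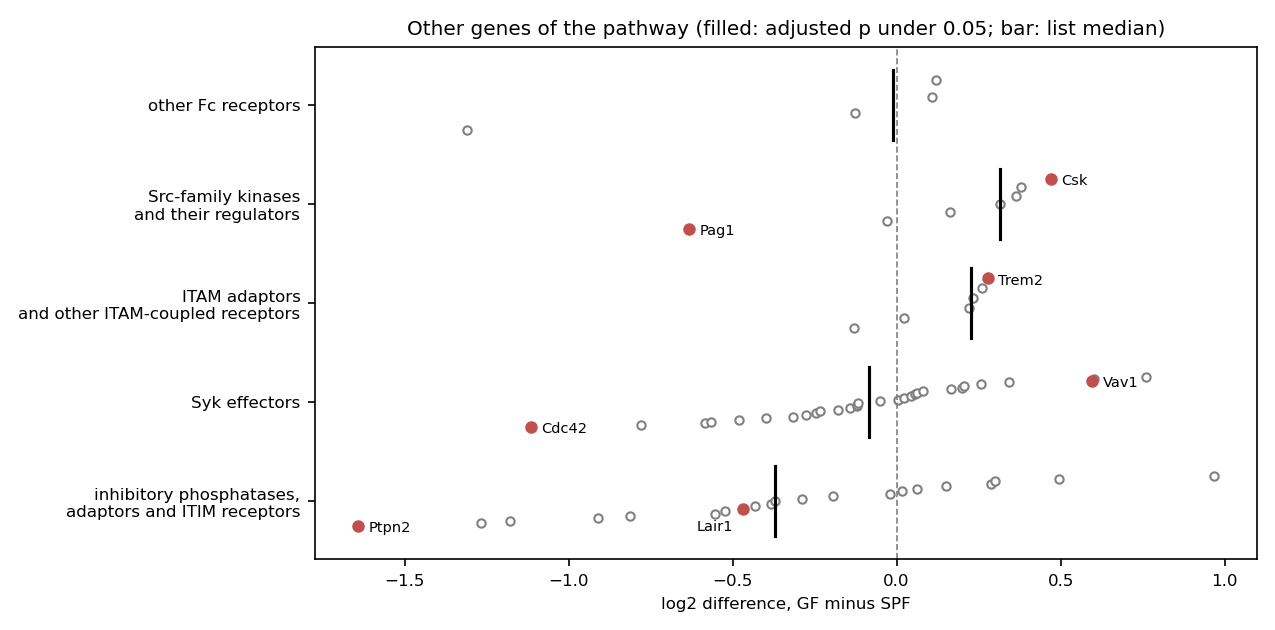
Log2 difference, GF minus SPF (horizontal axis), of the 68 tested genes in 5 pathway lists, 1 point per gene, filled and named where the adjusted p was under 0.05, with a bar at each list's median. Vav1, Csk and Trem2 lie to the right of 0, Cdc42, Pag1, Lair1 and Ptpn2 to the left, and the bar of the inhibitory list stands at -0.37.

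Fcgr2b, Fcgr4, Fcgr3 and Fcer1g are neighbours on chromosome 1, while Fcgr1 lies on chromosome 3. Among tested genes Fcgr4 and Fcgr3 follow Fcgr2b directly and Fcer1g is 6 places away. Of the 10 tested genes on each side of Fcgr2b, 20 in all, 0 rose and 2 fell, 10% of them against 6.76% of all genes tested, with a median log2 difference of -0.17. The genes that fell were Tmco1, a calcium channel gene of the endoplasmic reticulum, and Nos1ap, which encodes an adaptor of neuronal nitric oxide synthase, both on the side away from the other receptors. Tmco1 averaged 101 ± 20.7 in GF and 147 ± 26.1 in SPF and Nos1ap 17.2 ± 12.6 in GF and 60.4 ± 32.9 in SPF (SD, n = 7 each). The call of Nos1ap held without any 1 library (limma adjusted p up to 0.0418) and was lost with the mean of all rows of the gene (-1.40, limma adjusted p = 0.0551) and without a mean trend (limma adjusted p = 0.0737). That of Tmco1 was lost without GF 2, GF 5, GF 6, SPF 2, SPF 4, SPF 6 or SPF 7 (limma adjusted p up to 0.0781). The Tmco1 call was also lost with depth as a covariate (limma adjusted p = 0.102) and without a mean trend (limma adjusted p = 0.0799). Nor did it hold with trends of length and GC content removed (limma adjusted p = 0.0648) or without GF 1, GF 6 and SPF 2 (limma adjusted p = 0.121). These neighbours were chosen after the values were seen.

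**Figure D5:**
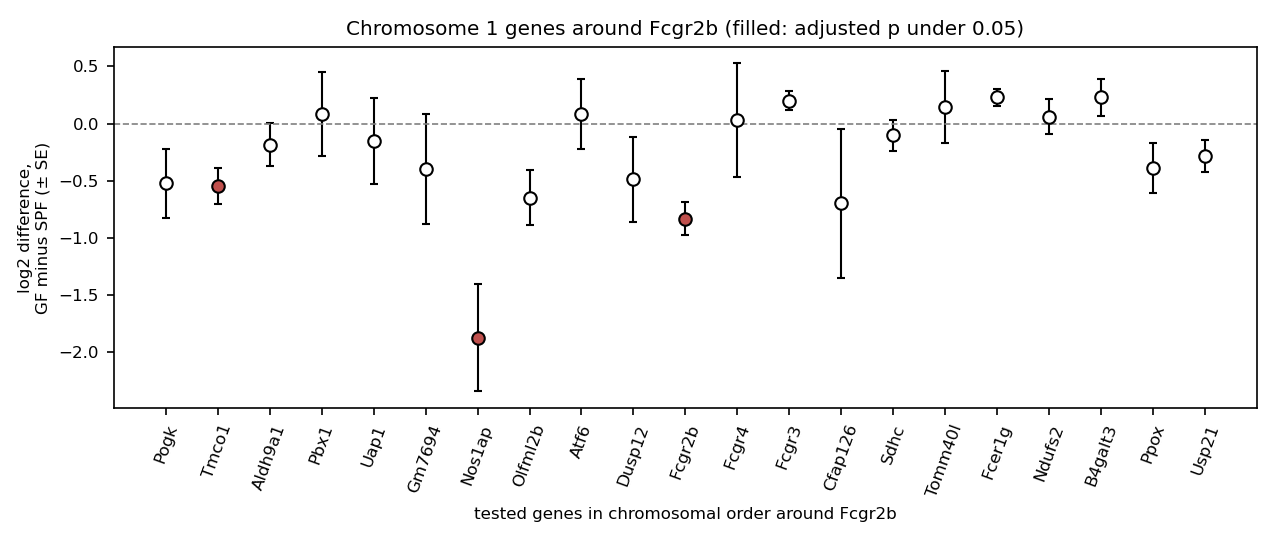
Log2 difference, GF minus SPF, with its SE (vertical axis) for Fcgr2b and the 10 tested genes on each side of it in chromosomal order (horizontal axis, not to scale), filled where the adjusted p was under 0.05. Fcgr2b at -0.83, Tmco1 at -0.55 and Nos1ap at -1.87 are filled.

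Markers of other cells that express Fc receptors were read from the same libraries. B cells express Fcgr2b as their only Fc gamma receptor, and the 4 of 9 B cell markers in the table summed to 79.6 to 122 normalized counts in GF libraries and 79.6 to 125 in SPF libraries, nearly all from Cd79b and Cd22, while Cd79a was at most 4.98 and at 0 in 12 of 14 libraries. Monocyte markers, 6 of 8, summed to at most 29.1 in GF libraries, in GF 1, and at most 18.2 in SPF libraries. The medians of that sum ran the other way, 5.21 in GF and 14.8 in SPF libraries. Within it, Ccr2 was at 0 in every GF library, and stood at 10.8 in SPF 5, 6.92 in SPF 6 and 11.3 in SPF 7. Nr4a1 reached 23.7 in GF 2 and 15.0 in SPF 4. Ly6c2 reached 9.89 and Spn 9.37 in GF 1, against at most 0.836 and 7.79 in SPF libraries. The part of Ccr2 in the Fc receptor results was not tested. Markers of T and NK cells, 6 of 10, summed to at most 7.29 in GF and 5.10 in SPF libraries. The 3 of 10 neutrophil markers summed to 269.5 to 403 in GF and 165 to 260.1 in SPF libraries, almost wholly from Elane, with Camp and Retnlg at most 2.97. Border macrophage markers, 6 of 8, summed to 443 to 670.4 in GF and 455 to 564 in SPF libraries, nearly all from Stab1. Mrc1 ran from 0 to 17.8 in GF and from 2.83 to 31.9 in SPF libraries. Pf4 was at 0 in every GF library and reached 31.4 in SPF libraries. Cbr2 reached 9.46 in GF and 15.6 in SPF libraries. F13a1 was seen in SPF 4 alone, at 1.67, and Ms4a7 in GF 1 alone, at 2.08. The 12 microglia markers summed to 64960 to 73367 in GF and 55125 to 64775 in SPF libraries. The part of the neutrophil and microglia sums, which were higher in all GF libraries, in the Fc receptor results was not tested.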

How the data were processed

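Sorted CD11b-positive, CD45-low microglia were profiled with 3′-end libraries of polyadenylated RNA, per the labels' protocols. TopHat and the build mm9 are named, per the submitters' processing notes, while counter and scaling were not given in the sources used here. This deposited signal, called normalized counts, is given by the authors per RefSeq transcript, with totals of 1356633 to 1520780 per library. Between 84.5% and 86.7% of positive values were whole multiples of a step per library, within 0.01, so whole reads were not recovered; the sum over the kept gene rows divided by the step gave depth in read equivalents.

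The row with the highest mean was kept per symbol. Of 18487 rows, 18119 matched RefSeq (GRCm38.p6) by accession, and that build is not mm9, so no coordinates are given. Genes averaging 7.22 normalized counts or more over all libraries were tested, two-sided and without covariates, by limma 3.58.1 (R 4.3.3), letting the variance prior follow the mean. The exact permutation test covered the receptor ratios. The limma procedure, but not the permutation test, was run on simulated data, with the outcome not reported here. Sequence steps used GENCODE M21. Strand use is not given, so antisense and overlapping genes cannot be told apart.

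The members and lists were chosen with earlier results of these data known. Named were all members, up to 4 called genes per list with the smallest adjusted p or else that with the smallest p, and the 3 genes most like Fcgr2b. Alternatives were other pseudocounts, filters, scalings and variance models, a depth covariate, the replicate block, and leaving out libraries.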

Additional observations from a re-analysis of the deposited data

Results flagged for a closer look

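Among 26 groups of 7 libraries examined, 10 genes and 3 ratios in each housing condition, 2 held a library standing apart from the others by Dixon's test, where chance marks about 1 in 20. Plcg2 stood at 431 normalized counts in GF 4, and the next GF library at 316, a gap of 0.673 of the group's range. The log2 ratio of Fcgr2b to Fcgr4 was 5.67 in GF 3, and the next GF library had 2.86, a gap of 0.665 of the range.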

How the results depend on the processing

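Over 28 alternative settings Fcgr2b kept its direction and call, with log2 differences of -0.92 to -0.63 (limma adjusted p 0.00018 to 0.0132). The number of members past the threshold was 2 with a filter at 20 pseudocounts, which added Fcer1g, and 2 with trends of length and GC content removed, an alternative chosen after seeing the data, which added Lyn. Fcgr4, Syk, Plcg2 and Inpp5d, which did not pass, had differences of either sign over the settings. The count of members past the threshold was 1 to 2 when each library was left out in turn. The ratios of Fcgr2b to Fcgr1 and to Fcgr3 kept their calls in 19 settings, at -1.22 to -1.07 and -1.13 to -0.97. The ratio to Fcgr4 lay between -1.37 and -0.67 when each library was left out, and passed without GF 3 alone. With the replicate block Fcgr2b gave -0.83 (limma adjusted p = 0.00246), and Pag1 and Trem2 did not pass (limma adjusted p = 0.057 each). For the ratios this setting used another test, which flips the signs of the differences between same-numbered libraries. By it the ratios to Fcgr1 and Fcgr3 passed (exact sign-flip permutation adjusted p = 0.0234). Its p-values cannot be set beside those from the 3432 divisions. Same-numbered libraries did not deviate together (correlations -0.06 to 0.05, 0 of 7 best with their own number). That cannot show whether they were handled together, because a shared handling need not leave a shared deviation. Genes called were 160 higher and 161 lower without a mean trend, and 154 and 166 without GF 1, GF 6 and SPF 2. The causes were not tested. Depth limits Fcgr4 most, at 1 to 47 read equivalents per library.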

Other observations

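Spread between libraries differed among the genes in ways that were not tested. Lyn varied by 3.98% of its mean in GF libraries and by 10.1% in SPF libraries, and Fcer1g by 5.05% in GF and 9.49% in SPF. Inpp5d went the other way, with 12.3% in GF and 5.93% in SPF, and Fcgr4 varied by 62.0% in GF and 56.7% in SPF.

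With each group's mean removed, the genes whose log2 values were most like Fcgr2b over the 14 libraries, among 8821 compared, were Atg10 (Pearson r = 0.911), Armc1 (r = 0.899) and Cr1l (r = 0.863). The points share each library's depth.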
